A study of Mus musculus with 8 samples.

Results

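Differences between samples labelled Ezh2 KO and WT were described within leukaemia-initiating cells (LICs) of a mouse model of chronic myeloid leukaemia (CML). The 2 arrays titled Ezh2 KO CML LICs were set against the 3 titled WT CML LICs. These are 5 of the 8 arrays of the series, and the other 3 hold LSK cells of normal marrow. Genes were described by 1 probe set each, the brightest over the 8 arrays, and genes of chromosomes X and Y were left out, which kept 11983 of 12393 genes. LICs were GFP+Lin-Sca1+Kit+ marrow cells from a retroviral CML model, sorted 14 days after transplantation. LSK cells (Lin-Sca1+Kit+), a fraction rich in stem and multipotent progenitor cells, came from the marrow of normal animals. All animals were labelled C57/BL6 and 12 weeks old, and every sample was double sorted. Both LIC groups thus share the retrovirus, the leukaemia and the transplantation, and differ in the label WT or Ezh2 KO. The sources used here do not say how or in which cells Ezh2 was deleted, whether animals were pooled, or their sex. The labels call the arrays biological repeats. The p-values set a difference against the spread between arrays within groups, estimated from all 8 arrays, LSK cells included.

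Ezh2 is the main catalytic subunit of Polycomb repressive complex 2 (PRC2), which methylates lysine 27 of histone H3. The mark holds genes of other lineages and of later differentiation silent, and Ezh1 is a second, weaker enzyme of the same complex. In blood-forming cells PRC2 restrains, among others, lymphoid differentiation genes, the Cdkn2a locus and fetal-type genes. In CML the BCR-ABL fusion kinase drives growth, and a small Kit+ fraction passes the disease on.

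Levels are log2 intensities. A level of 4.01, the highest mean of 27 unspiked bacterial control probe sets, was taken as background. Array medians ranged from 6.42 to 6.57, and the LIC arrays correlated with each other at 0.967 to 0.988 over genes, a description only. WT LIC replicate 3 stood apart from the other WT LIC arrays. On it, 284 genes lay more than 2 from the mean of the other 2 WT LIC arrays, against 120 for replicate 1 and 114 for replicate 2. Xist, the RNA of the inactive X chromosome, was at 10.68, 11.06 and 4.35 in WT LICs and 10.69 and 11.18 in Ezh2 KO LICs, and at 12.45 to 12.69 in LSK cells. Eif2s3y, a gene of the Y chromosome, was at 9.40, 9.21 and 9.70 in WT LICs, 9.80 and 9.25 in Ezh2 KO LICs and 1.28 to 1.63 in LSK cells. Both genes were thus high on 4 LIC arrays, Eif2s3y without Xist on WT LIC replicate 3, and Xist without Eif2s3y on the LSK arrays. The erythroid gene Klf1 was at 10.78, 9.81 and 4.89 in WT LICs and 7.37 and 5.80 in Ezh2 KO LICs. Dntt, the terminal transferase of lymphoid progenitors, was at 9.89, 9.58 and 12.14 against 11.99 and 11.92, so that on this gene WT LIC replicate 3 lay beside the Ezh2 KO arrays and the other WT LIC arrays lay lower. The 3′ minus 5′ signal of Actb spanned 0.73 to 1.00 and that of Gapdh 0.66 to 0.96 over all arrays. Among LIC arrays Actb overlapped, while Gapdh was at 0.82, 0.72 and 0.73 in WT LICs and 0.70 and 0.69 in Ezh2 KO LICs, and the part of this in the results was not tested. In what follows, array values are given in the order of the replicate numbers.

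Ezh2 was at 11.33, 11.44 and 11.26 on the 3 WT LIC arrays and at 8.94 and 9.55 on the 2 Ezh2 KO arrays, so the groups did not overlap. It fell 4.29-fold (log2 difference -2.10, SE 0.21, limma adjusted p = 0.00985, at most 0.0499 with any 1 array left out), and was at 10.77, 10.95 and 11.07 in LSK cells. With the 5 LIC arrays fitted alone the adjusted p was 0.055. The place of its probe set relative to the deleted exons is not stated, so this level does not check the deletion. Ezh1 was at 7.81, 7.79 and 7.87 in WT and 6.84 and 6.41 in Ezh2 KO LICs, a difference of -1.20 that did not pass the test (limma adjusted p = 0.212). Of 10 PRC2 subunits measured, Ezh2 alone was called, while 0.0501% of all genes were called lower. The median difference of the list was -0.15. For 5 of the 10, Ezh2 among them, both Ezh2 KO arrays lay below all WT LIC arrays (50.0%, against 16.7% over all genes). For 2 they lay above.

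Most of the called genes were higher in the knockout cells. Of 11983 autosomal genes, 75 (0.626%) were called between Ezh2 KO and WT LICs at a Benjamini-Hochberg adjusted p under 0.05 in limma, 69 of them higher (0.576%) and 6 lower (0.0501%). Among the 69, 38 had a WT LIC mean at or under background and are called switched on, and 31 rose from a measurable level and are called raised. The arrays of the 2 groups did not overlap for any of the 75, which largely follows from choosing genes by p-value on these arrays. It adds no support to the calls. Over all genes, arrays did not overlap for 13.1% in the upward and 16.7% in the downward direction. The median difference of all autosomal genes was -0.06. An unadjusted limma p under 0.05 was found for 1340 of the 11983, the count to set beside such counts for the lists below. The calls lean on single arrays: 13 of the 75 kept their call whichever of the 8 arrays was left out, and no called gene changed direction. Without WT LIC replicate 3, 139 genes were called, 64.0% of them higher against 92.0% with it, and 65 of the 75 were among them. Without WT LIC replicate 1 the count was 23, of which 19 were among the 75, and without WT LIC replicate 2 it was 35, of which 29 were. Without Ezh2 KO replicate 1 it was 66, with 29 of the 75 among them, and without Ezh2 KO replicate 2 it was 38, with 22. Without LSK replicate 3 it was 49, with 46 shared.

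**Figure D1:**
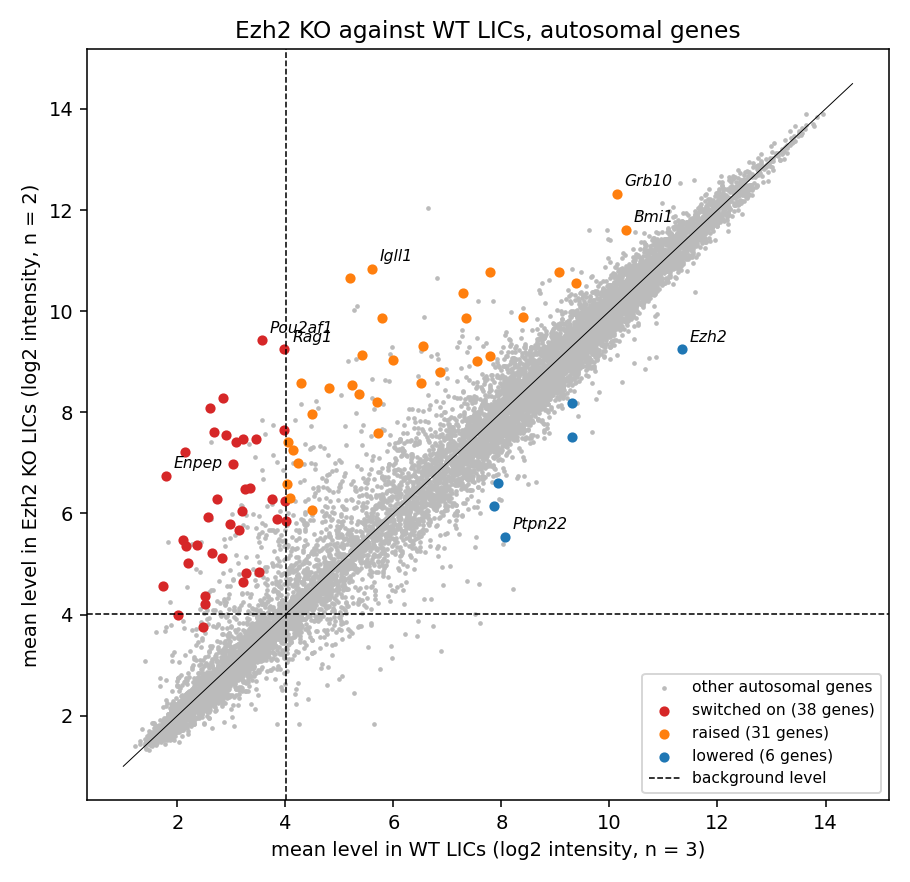
Mean log2 intensity of each autosomal gene in Ezh2 KO LICs (2 arrays) against WT LICs (3 arrays). Dashed lines mark the background level of 4.01, the thin line equality; the 38 switched-on genes lie left of the vertical dashed line, the 31 raised genes right of it, and the 6 lowered genes below the line of equality.

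Of the 38 genes grouped as switched on, 36 had an Ezh2 KO mean above background, and these differed by 1.33 to 5.86 (log2), with a median of 3.18. The means of Hao1 and Fermt2 stayed under background in both groups, so no size is given for them. For 30 of the 38 all 3 WT LIC arrays were at or under background. With the background level set 1 lower, 20 of the 69 rises counted as switched on and 49 as raised. With it set 1 higher, 47 counted as switched on and 22 as raised. Folds of this class are lower bounds against the background level. The log2 differences use the measured WT LIC values, also those under background, so they can exceed these bounds. The 2 Ezh2 KO arrays were more than 1 apart for 5 of these genes, Cxcl2, Fosb, Atf3, Ripk4 and Hoxc4.

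**Figure D2:**
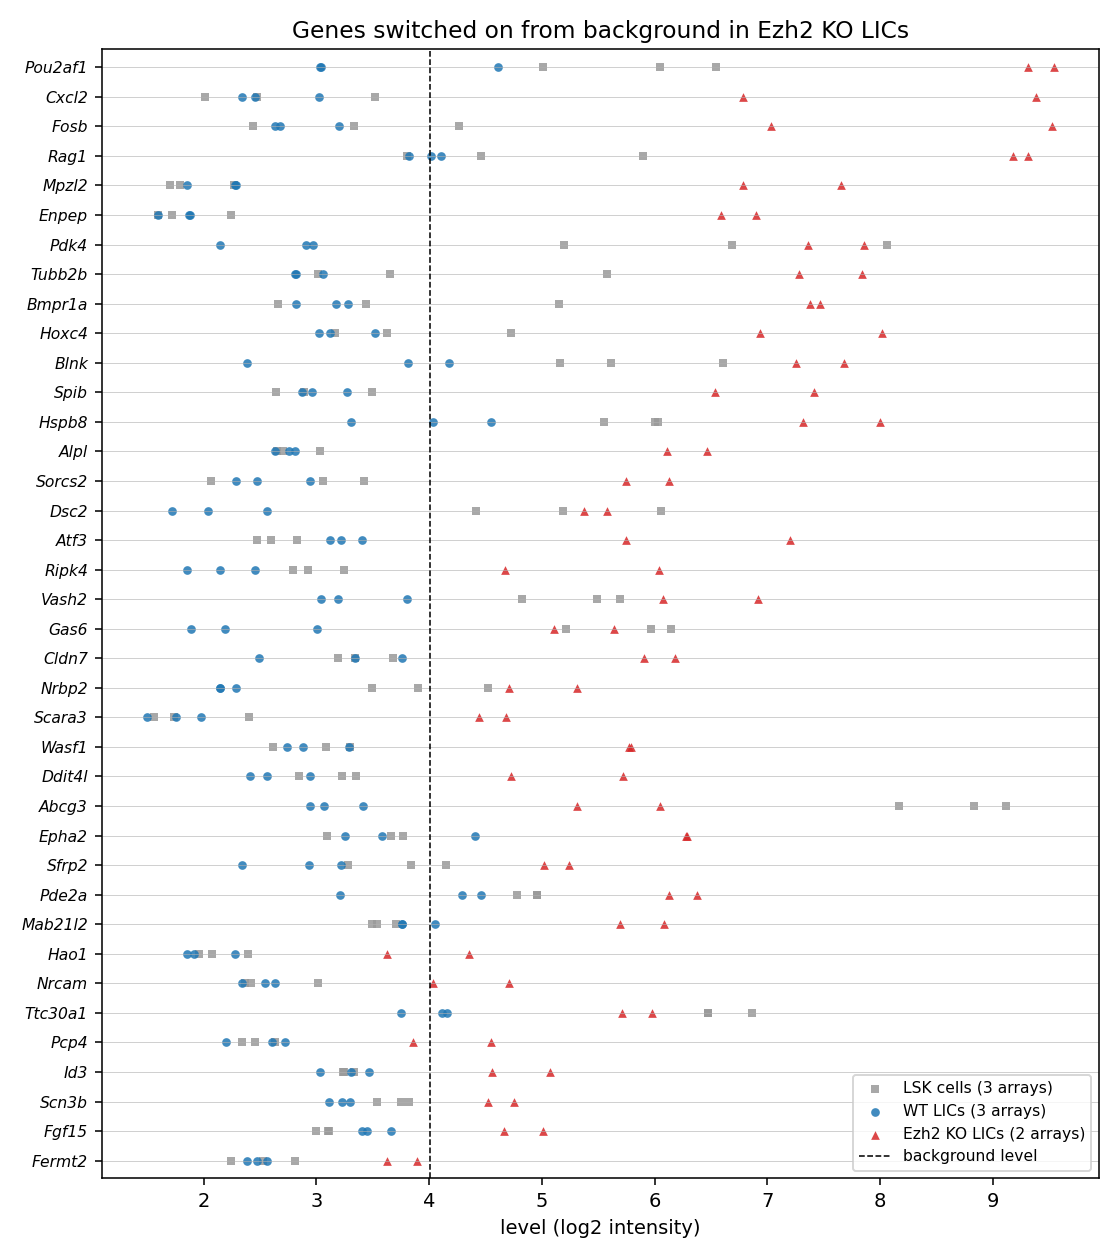
Level (log2 intensity) of the 38 switched-on genes on each array, ordered by difference. Squares are LSK arrays, circles WT LIC arrays and triangles Ezh2 KO LIC arrays; the dashed line is the background level of 4.01, and on each row the triangles lie right of the circles.

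Members of 3 gene lists of early B-cell development made up 7 of the 69 genes called higher. Of 16 measured genes of the pre-B cell receptor and B cell signalling, 4 were called higher and none lower, and of 15 B-lineage transcription factors and coactivators 2 were called higher. Of 13 genes of antigen receptor recombination and lymphoid priming, 1 was called higher, while 0.576% of all genes were called higher. Medians of the 3 lists were 0.29, 0.41 and 0.97, against -0.06 over all genes. Pou2af1 encodes OBF-1, the B-cell coactivator of the octamer factors. It was at 4.61, 3.03 and 3.05 in WT LICs and 9.54 and 9.31 in Ezh2 KO LICs, at least 37.1-fold higher (log2 difference 5.86, SE 0.58, limma adjusted p = 0.00985, at most 0.0551 with any 1 array left out). Rag1, a subunit of the recombinase that cuts antigen receptor genes, was at 3.82, 4.11 and 4.02 against 9.31 and 9.18, at least 36.8-fold higher (log2 difference 5.26, SE 0.53, limma adjusted p = 0.00985, at most 0.0581 with any 1 array left out). For both genes every Ezh2 KO array lay well above every WT LIC array. Blnk, the adaptor that links the pre-B cell receptor to phospholipase C, was at 3.81, 2.39 and 4.18 against 7.68 and 7.25 (log2 difference 4.01, SE 0.59, limma adjusted p = 0.0351, at most 0.153 with any 1 array left out). Spib, an ETS-family transcription factor of B and plasmacytoid dendritic cells, was at 3.27, 2.87 and 2.96 against 6.54 and 7.42 (log2 difference 3.94, SE 0.33, limma adjusted p = 0.00753, at most 0.0295 with any 1 array left out).

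Raised members of these lists included Igll1, the λ5 chain of the surrogate light chain. Its level was 6.09, 5.21 and 5.52 in WT LICs and 11.36 and 10.31 in Ezh2 KO LICs, a 37.4-fold rise (log2 difference 5.23, SE 0.47, limma adjusted p = 0.00753, at most 0.0315 with any 1 array left out). A second Igll1 probe set differed by 1.82. Vpreb3, which takes part in assembling that receptor, was at 4.52, 3.89 and 4.46 against 9.07 and 8.09, 19.6-fold higher (log2 difference 4.29, SE 0.35, limma adjusted p = 0.00753, at most 0.0295 with any 1 array left out). Cd79a, a signalling chain of the B cell receptor, was at 5.08, 4.37 and 4.94 against 8.95 and 8.03, 12.9-fold higher (log2 difference 3.69, SE 0.34, limma adjusted p = 0.00753, at most 0.0329 with any 1 array left out). All 3 were higher on Ezh2 KO replicate 1 than on replicate 2. Ly6d, a surface marker of B-committed lymphoid progenitors outside the 3 lists, was at 4.92, 4.11 and 4.43 against 7.99 and 7.94 (log2 difference 3.48, SE 0.46, limma adjusted p = 0.0256, at most 0.132 with any 1 array left out). Vpreb1, the partner of λ5, was at 7.46, 5.68 and 7.26 against 10.90 and 10.40, a difference of 3.85 that did not pass the test (limma adjusted p = 0.0852). Ebf1, the B-lineage determinant, was at 7.06, 2.70 and 5.74 against 9.23 and 8.80 (limma adjusted p = 0.361). Without WT LIC replicate 3 the recombination list had 4 members called and the factor list 3. The recombination list had 0 in limma without WT LIC replicate 1 or Ezh2 KO replicate 2, and the factor list had 1 without the latter.

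Pax5 was at 2.78, 2.78 and 2.75 in WT LICs and 2.48 and 2.32 in Ezh2 KO LICs, under background on every LIC array, as were the mature B-cell genes Cd22, Ms4a1 and Blk. The summed linear intensity of 8 B-cell markers was 2175 to 2514 on WT LIC arrays, 3162 to 3747 on Ezh2 KO arrays and 2884 to 3157 on LSK arrays, and 5 of the 8 had non-overlapping higher arrays (62.5%, against 13.1% over all genes), 3 of them under background in both groups. Cd79b, the partner of Cd79a, was at 8.56, 8.27 and 9.17 against 10.24 and 9.47 (limma adjusted p = 0.22). Cd37 and Cd72, surface proteins of B cells, were above background on every LIC array, and their groups overlapped. Whether a share of B-lineage cells within the sort plays a part in these levels was not tested. In bulk samples, a change in the number of such cells and a change in RNA per cell cannot be told apart.

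Promoters are shown for 3 of these genes, since the octamer is the site through which OBF-1 acts, and a further pair of motifs belongs to other B-lineage factors. RefSeq promoters (GRCm38.p6, 250 bases before the start) were found for all 7 called genes of the 3 lists. Motifs searched on both strands were the octamer ATGCAAAT, the E-box CAGCTG and the EBF-type palindrome CCCNNGGG, and capitals mark each match. The octamer was present in Vpreb3 and Blnk, 2 of the 7, and in 1.6% of 32851 promoter windows of that length. It lies 45 bases before the start of Vpreb3 and 130 before that of Blnk, on the opposite strand in both. The E-box (13% of windows) and CCCNNGGG (11.8%) were each found in 2 of the 7, both of them in Igll1, and no marked matches overlap. These are letter matches and not measured sites. The windows are chr10:75948050-75948299 on the + strand, chr19:40994222-40994471 on the - strand and chr16:16863986-16864235 on the - strand, each read 5′ to 3′ toward its gene:
Vpreb3: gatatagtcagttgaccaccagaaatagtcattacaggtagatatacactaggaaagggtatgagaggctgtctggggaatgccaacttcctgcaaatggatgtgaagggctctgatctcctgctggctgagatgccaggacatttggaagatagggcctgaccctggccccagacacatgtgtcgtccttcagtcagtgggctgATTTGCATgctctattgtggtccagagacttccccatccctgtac
Blnk: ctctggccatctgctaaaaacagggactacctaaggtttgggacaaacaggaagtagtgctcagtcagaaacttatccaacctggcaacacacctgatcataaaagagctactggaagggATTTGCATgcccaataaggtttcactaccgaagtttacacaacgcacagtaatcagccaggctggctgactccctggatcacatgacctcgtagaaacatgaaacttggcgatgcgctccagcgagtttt
Igll1: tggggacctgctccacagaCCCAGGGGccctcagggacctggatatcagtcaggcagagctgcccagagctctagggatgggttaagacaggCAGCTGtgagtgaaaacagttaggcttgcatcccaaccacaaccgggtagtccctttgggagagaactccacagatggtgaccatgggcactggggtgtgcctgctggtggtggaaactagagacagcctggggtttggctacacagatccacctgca

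Immediate early genes, which answer stimulation quickly, held 2 further switched-on members. Of 30 measured AP-1, EGR and related genes, 2 were called higher and none lower, and 19 had non-overlapping higher arrays (63.3%, against 13.1% over all genes). Their median difference was 0.97. Fosb, a subunit of AP-1, was at 2.63, 2.68 and 3.20 in WT LICs and 7.03 and 9.53 in Ezh2 KO LICs, at least 19.3-fold higher (log2 difference 5.44, SE 0.76, limma adjusted p = 0.0288, at most 0.109 with any 1 array left out). Atf3, a stress-responsive factor of the same family, was at 3.12, 3.22 and 3.40 against 5.75 and 7.20 (log2 difference 3.23, SE 0.38, limma adjusted p = 0.0178, at most 0.071 with any 1 array left out). Both Ezh2 KO arrays lay above all WT LIC arrays, with replicate 2 the higher of them. Fos was at 7.79, 5.23 and 6.93 against 11.54 and 12.53, a difference of 5.39 that did not pass the test (limma adjusted p = 0.151), and Dusp1, a phosphatase that ends MAP kinase signals, differed by 1.98 (limma adjusted p = 0.0698). Of 26 chemokine and NF-kB response genes, Cxcl2 alone was called, and their median difference was 0.07. Cxcl2, which attracts neutrophils, was at 2.46, 2.34 and 3.02 against 6.78 and 9.39, at least 16.8-fold higher (log2 difference 5.48, SE 0.75, limma adjusted p = 0.0279, at most 0.103 with any 1 array left out). Without WT LIC replicate 3 the AP-1 and EGR list had 3 called members, and without WT LIC replicate 1 or 2, or with the LIC arrays alone, it had 0 in limma. Cxcl2 lost its call without LSK replicate 1, WT LIC replicates 1 or 2 or Ezh2 KO replicate 2.

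The promoter of Cxcl2 is shown because NF-kB is its known regulator. Searched with GGNNTTTCC on both strands, the window chr5:90903649-90903898 on the + strand (GRCm38.p6, RefSeq) had matches 96 and 77 bases before the start, in capitals, without overlap. The motif was present in 4.93% of 32851 windows.
Cxcl2: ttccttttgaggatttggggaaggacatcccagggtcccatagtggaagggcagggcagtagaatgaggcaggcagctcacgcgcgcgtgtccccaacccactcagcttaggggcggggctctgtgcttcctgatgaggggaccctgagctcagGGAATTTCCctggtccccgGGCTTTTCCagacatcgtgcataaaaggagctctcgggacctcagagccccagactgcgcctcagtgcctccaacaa

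Among the other switched-on genes was Bmpr1a, a type I receptor for bone morphogenetic proteins, at 3.18, 2.82 and 3.28 in WT LICs and 7.47 and 7.38 in Ezh2 KO LICs, at least 10.6-fold higher (log2 difference 4.33, SE 0.63, limma adjusted p = 0.0324, at most 0.173 with any 1 array left out). Id3, an inhibitor of E proteins that such signals induce, differed by 1.55. Hoxc4, a homeobox factor, was at 3.52, 3.12 and 3.02 against 8.01 and 6.94, at least 11-fold higher (log2 difference 4.25, SE 0.49, limma adjusted p = 0.0163, at most 0.0696 with any 1 array left out). Of 18 Hoxa and Hoxb genes none was called in limma and 3 had an unadjusted p under 0.05, and Hoxa10 at 6.56, 7.33 and 7.94 against 10.15 and 8.87 had an adjusted p of 0.134 in limma. Of 53 developmental regulators that PRC2 silences in embryonic stem cells none was called and 3 had an unadjusted p under 0.05, their median difference was -0.08, and 42 to 45 of them were at or under background on each LIC array. Isl1, a homeobox factor of that list, was at 3.43, 2.14 and 2.28 against 5.57 and 6.22 (limma adjusted p = 0.112). The Wnt modulator Sfrp2 differed by 2.30, the growth factor gene Fgf15 by 1.33 and Gas6, a ligand of TAM receptors, by 3.01.

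Mpzl2, an adhesion protein of the immunoglobulin family, was also switched on, at 2.28, 2.29 and 1.86 in WT LICs and 6.78 and 7.65 in Ezh2 KO LICs, at least 9.23-fold higher (log2 difference 5.08, SE 0.31, limma adjusted p = 0.00152, at most 0.015 with any 1 array left out). Enpep, the aminopeptidase known as BP-1 on pre-B cells, differed by 4.96 (limma adjusted p = 0.000729), the smallest adjusted p among the 75. Alpl, tissue-nonspecific alkaline phosphatase, differed by 3.55. Both kept their call whichever array was left out. Pdk4, a kinase that shuts pyruvate out of the mitochondrial oxidation pathway, was at 2.97, 2.15 and 2.91 against 7.36 and 7.86 (log2 difference 4.94, SE 0.73, limma adjusted p = 0.0355, at most 0.212 with any 1 array left out). Tubb2b, a tubulin of developing neurons, was at 3.06, 2.82 and 2.81 against 7.28 and 7.84 (log2 difference 4.66, SE 0.66, limma adjusted p = 0.0304, at most 0.191 with any 1 array left out). In both genes the WT LIC arrays were all under background. Differences of the other members were 3.69 for the small heat shock protein Hspb8, 3.37 for the desmosomal cadherin Dsc2, 2.84 for the tight-junction protein Cldn7, 2.53 for the ephrin receptor Epha2 and 1.87 for the adhesion protein Nrcam. The probe sets of Hspb8 disagree: its other 2 differed by 0.37 and 0.65, and the latter was above background in WT LICs, at a mean of 4.82. Sorcs2 differed by 3.37, Ripk4 by 3.21, Vash2 by 3.15, Nrbp2 by 2.82, Scara3 by 2.82, Wasf1 by 2.81, Ddit4l by 2.58, Abcg3 by 2.53 and Pde2a by 2.26. Smaller differences were those of Mab21l2 (2.04), Ttc30a1 (1.83), Pcp4 (1.70) and Scn3b (1.42). Against the background level the bounds are far smaller for some genes. They were at least 1.465-fold for Scara3, 1.287-fold for Nrcam and 1.145-fold for Pcp4, and at least 6.649-fold for Enpep.

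The 31 genes raised from a measurable level differed by 1.18 to 5.45, with a median of 2.76. Some WT LIC means lay close to the background level of 4.01, so the folds of these genes rest on levels near background. They were 4.025 for Rtkn, 4.046 for Dsg2, 4.089 for Slamf6, 4.138 for Fzd2 and 4.287 for Vpreb3. The top of the class by difference was Sdc4, a heparan sulfate proteoglycan of cell adhesion, at 3.68, 4.90 and 7.03 in WT LICs and 10.77 and 10.53 in Ezh2 KO LICs, 43.6-fold higher (log2 difference 5.45, SE 0.84, limma adjusted p = 0.0437, at most 0.2 with any 1 array left out). Its WT LIC arrays were far apart, while the Ezh2 KO arrays were close together. It was the 1 called gene in the list of 37 adhesion and junction genes (0.576% of all genes were called higher), and without WT LIC replicate 3 that list had 2. The called genes Dsg2, Dsc2, Cldn7, Nrcam and Mpzl2 are outside this list. Of the 37, 10 had non-overlapping higher arrays (27.0%, against 13.1% over all genes) and 3 had lower (8.11%, against 16.7%). The list had 0 in limma without each LSK array in turn, without WT LIC replicate 1 or 2 or Ezh2 KO replicate 1, and with the LIC arrays alone. Dsg2, a desmosomal cadherin, was at 4.67, 4.47 and 3.00 against 7.26 and 7.58 (log2 difference 3.37, SE 0.46, limma adjusted p = 0.0279, at most 0.166 with any 1 array left out). Tmeff1, a transmembrane protein with follistatin domains, was at 6.25, 4.50 and 6.61 against 9.90 and 9.82, 16.8-fold higher (log2 difference 4.07, SE 0.57, limma adjusted p = 0.0288, at most 0.15 with any 1 array left out). Gem, a small GTPase that restrains calcium channels, was at 5.67, 4.65 and 5.39 against 8.27 and 8.79 (log2 difference 3.29, SE 0.52, limma adjusted p = 0.0497, at most 0.277 with any 1 array left out). Neither group overlapped the other for these genes. Fzd2, a Wnt receptor, was at 4.51, 4.16 and 3.75 against 6.87 and 7.63, 8.65-fold higher (log2 difference 3.11, SE 0.31, limma adjusted p = 0.00985, at most 0.0474 with any 1 array left out).

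**Figure D3:**
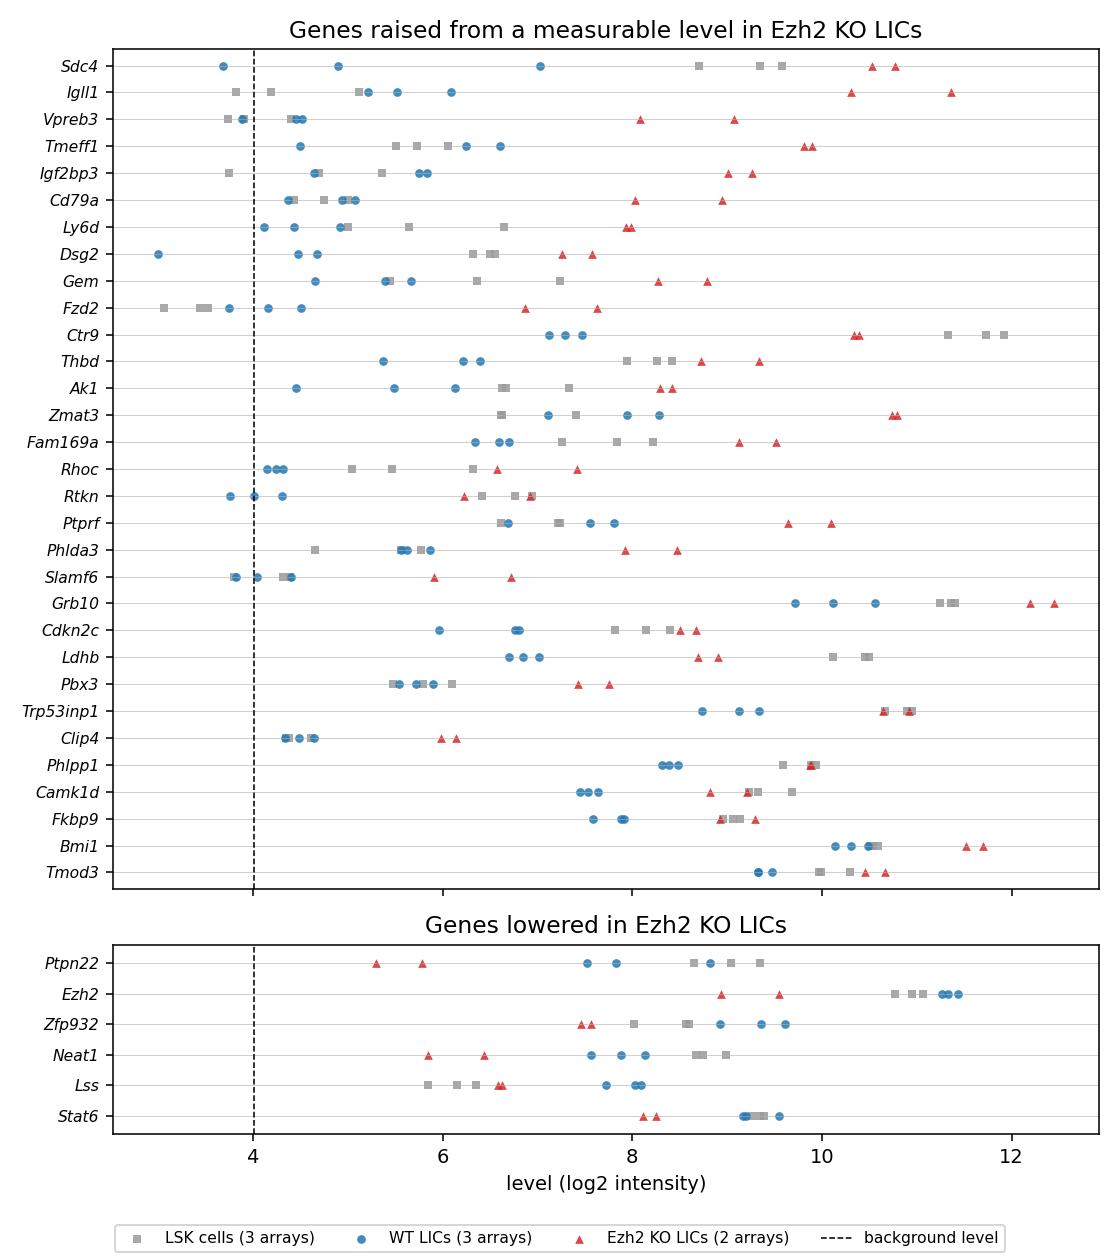
Level (log2 intensity) on each array of the 31 raised genes (top) and the 6 lowered genes (bottom), ordered by size of difference. Squares are LSK arrays, circles WT LIC arrays, triangles Ezh2 KO LIC arrays, and the dashed line is the background level of 4.01; in no row do triangles and circles overlap.

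Of 28 measured p53 target genes, 3 were called higher and none lower, and 17 had non-overlapping higher arrays (60.7%, against 0.576% of all genes called higher and 13.1% not overlapping), and the median difference was 0.61. Zmat3, an RNA-binding p53 target, was at 8.29, 7.95 and 7.12 in WT LICs and 10.74 and 10.79 in Ezh2 KO LICs (log2 difference 2.98, SE 0.38, limma adjusted p = 0.0217, at most 0.127 with any 1 array left out). Phlda3, an inhibitor of Akt, was at 5.63, 5.87 and 5.56 against 8.48 and 7.92 (log2 difference 2.51, SE 0.34, limma adjusted p = 0.0279, at most 0.121 with any 1 array left out), and Trp53inp1 at 8.74, 9.12 and 9.34 against 10.65 and 10.92 (log2 difference 1.71, SE 0.21, limma adjusted p = 0.021, at most 0.128 with any 1 array left out). A second Trp53inp1 probe set, above background, differed by 0.18 with overlapping arrays, and with the mean of probe sets the gene lost its call (limma adjusted p = 0.223). The summed linear intensity of the list was 13610 to 15080 on WT LIC and 23400 to 24740 on Ezh2 KO arrays. Of 11 cyclin-dependent kinase inhibitors and pocket proteins 1 was called, Cdkn2c, which binds Cdk4 and Cdk6, at 6.77, 6.81 and 5.97 against 8.67 and 8.50 (log2 difference 2.07, SE 0.30, limma adjusted p = 0.0304, at most 0.145 with any 1 array left out). Of all genes, 0.576% were called higher. In that list 7 of the 11 had non-overlapping higher arrays (63.6%, against 13.1% over all genes) and 0 had lower, with a median difference of 0.445. Cdkn2a, a known PRC2 target, was at 3.94, 4.51 and 2.40 against 8.46 and 6.69, a difference of 3.96 that did not pass the test (limma adjusted p = 0.0707). All 3 p53 targets lost their call without WT LIC replicate 2 or either Ezh2 KO array, and with the replicate block, and the list had 1 called member without WT LIC replicate 1 or with the LIC arrays alone. Cdkn1a, a p53 target, was at 8.63, 8.63 and 9.17 against 10.51 and 9.83 (limma adjusted p = 0.205). In limma none of 33 G2 and mitosis genes, 25 G1/S genes or 14 BCL2 family genes was called. Of them 1, 3 and 3 had an unadjusted p under 0.05, against 1340 of all 11983 genes. Of the BCL2 family genes, 6 had non-overlapping higher arrays (42.9%, against 13.1% over all genes) and 1 had lower.

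Igf2bp3, an RNA-binding protein of fetal blood cells, was raised, at 5.75, 5.84 and 4.64 in WT LICs and 9.26 and 9.01 in Ezh2 KO LICs, 13.2-fold higher (log2 difference 3.73, SE 0.52, limma adjusted p = 0.0288, at most 0.14 with any 1 array left out). It alone was called of 9 fetal-type genes, whose median difference was 0.92, and Hmga2, a chromatin protein that promotes fetal stem cell self-renewal, was at 11.16, 11.60 and 11.14 against 12.12 and 12.96 (limma adjusted p = 0.142). Of all genes, 0.576% were called higher. Among the 9, 5 had non-overlapping higher arrays (55.6%, against 13.1% over all genes) and 1 had lower (11.1%, against 16.7%). Bmi1, a subunit of Polycomb repressive complex 1, was at 10.31, 10.49 and 10.14 against 11.52 and 11.70 (log2 difference 1.30, SE 0.16, limma adjusted p = 0.0193, at most 0.118 with any 1 array left out), and a second Bmi1 probe set differed by 1.37. Grb10, an imprinted adaptor that restrains insulin receptor signalling, was at 10.12, 10.56 and 9.72 against 12.20 and 12.45 (log2 difference 2.19, SE 0.25, limma adjusted p = 0.0144, at most 0.0915 with any 1 array left out). Ctr9, a subunit of the Paf1 elongation complex, differed by 3.08 on the probe set used, while its other 3 differed by -0.24, 0.05 and 0.10, so its probe sets disagree. Other raised genes were the anticoagulant receptor Thbd (3.04), adenylate kinase Ak1 (3.00), Fam169a (2.77), the GTPase Rhoc (2.76), its effector Rtkn (2.55), the receptor phosphatase Ptprf (2.52) and the lymphocyte receptor Slamf6 (2.23). The remainder were Ldhb (1.95), Pbx3 (1.87), Clip4 (1.57), Phlpp1 (1.48), Camk1d (1.48), Fkbp9 (1.32) and Tmod3 (1.18).

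Besides Ezh2, 5 genes fell. Ptpn22, a phosphatase that damps antigen receptor signals, was at 7.83, 7.53 and 8.82 in WT LICs and 5.79 and 5.30 in Ezh2 KO LICs, 5.72-fold lower (log2 difference -2.52, SE 0.40, limma adjusted p = 0.0497, at most 0.277 with any 1 array left out). Zfp932, a zinc finger gene, was at 9.36, 8.92 and 9.62 against 7.56 and 7.46 (log2 difference -1.79, SE 0.26, limma adjusted p = 0.0331, at most 0.195 with any 1 array left out). Neat1, the long noncoding RNA of paraspeckles, was at 7.57, 8.14 and 7.89 against 6.44 and 5.85 (log2 difference -1.72, SE 0.25, limma adjusted p = 0.0304, at most 0.164 with any 1 array left out). All arrays of these genes stayed above background. Lss, the lanosterol synthase of the sterol pathway, was at 8.03, 8.09 and 7.72 against 6.63 and 6.58 (log2 difference -1.34, SE 0.20, limma adjusted p = 0.0351, at most 0.195 with any 1 array left out), and at 6.15, 5.85 and 6.36 in LSK cells. Stat6, the factor of interleukin 4 signals, was at 9.20, 9.17 and 9.55 against 8.26 and 8.12 (log2 difference -1.12, SE 0.17, limma adjusted p = 0.0363, at most 0.216 with any 1 array left out). Of 16 sterol synthesis genes Lss alone was called, 7 had non-overlapping lower arrays (43.8%, against 16.7% over all genes) and none higher, and the median difference was -0.32. The other Lss probe sets, both above background, differed by -1.04 without overlap and by -0.71 with overlapping arrays. With the mean of probe sets Lss lost its call (limma adjusted p = 0.315), and no sterol gene was called. Of 24 MYC targets of ribosome biogenesis none was called in limma and 3 had an unadjusted p under 0.05, 12 had lower arrays (50.0%) and 3 higher, with a median of -0.24. Lss lost its call without WT LIC replicates 1 or 2, LSK replicates 1 or 3, or either Ezh2 KO array.

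**Figure D4:**
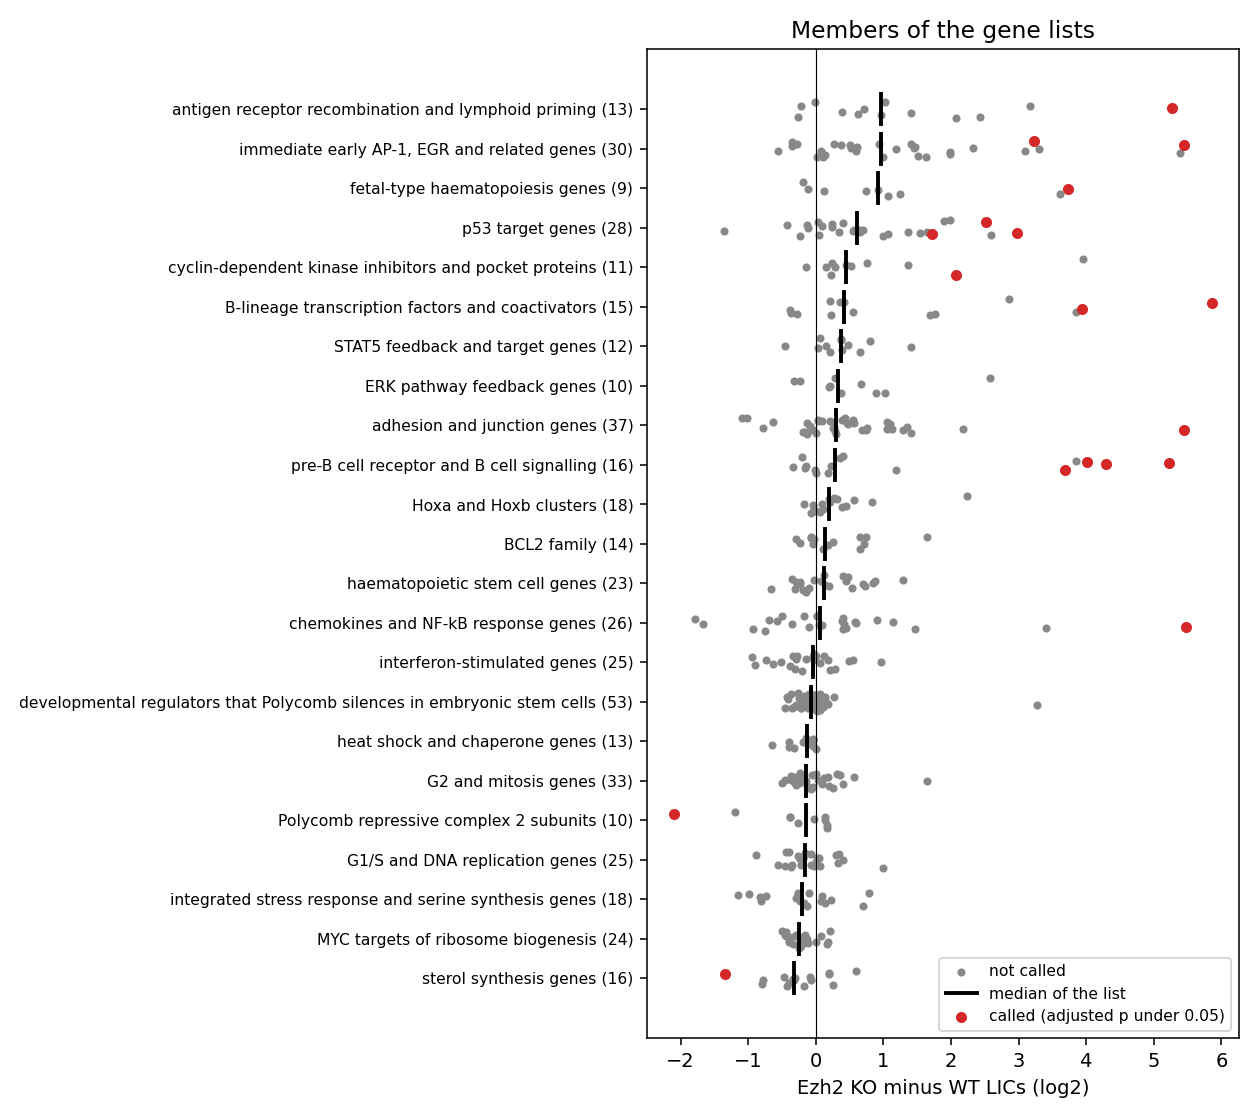
Difference of mean log2 intensity, Ezh2 KO minus WT LICs, of each measured member of 23 gene lists, ordered by list median; numbers in brackets are measured members. Red points are called genes, grey points are not called, and black bars are medians, which run from -0.32 for sterol synthesis to 0.97 for antigen receptor recombination.

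The other lists held no gene called in limma. Unadjusted limma p-values under 0.05 were found for 3 of 23 haematopoietic stem cell genes and 3 of 12 STAT5 targets. Among ERK feedback genes they were found for 1 of 10, and among integrated stress response genes for 3 of 18. They were found for 0 of 25 interferon-stimulated and 0 of 13 heat shock genes, and for 1340 of all 11983 autosomal genes. Of the 12 STAT5 targets, 6 had non-overlapping higher arrays (50.0%, against 13.1% over all genes) and 1 had lower. Markers of other cell types are given beside these results, and their part in them was not tested. Of 6 erythroid markers none was called in limma and 2 had an unadjusted p under 0.05, and their summed intensity was 110.4 to 5388 on WT LIC and 159.2 to 346.3 on Ezh2 KO arrays, with the lowest WT value on replicate 3. Without that array 4 of the 6 were called lower, and their median difference was -3.08 against -1.69 with it. Of 7 mast cell and basophil markers 5 had lower arrays (71.4%, against 16.7% over all genes), at sums of 3194 to 10930 against 1067 to 2608. The 13 granulocyte markers summed to 18990 to 22040 against 10060 to 18560. Of 8 stromal markers 2 had higher arrays (25.0%, against 13.1%), 1 of them under background in both groups, at sums of 105.6 to 197.9 against 307.9 to 380.2, and Sparc, a matrix protein, was at 5.80, 5.83 and 5.32 against 7.93 and 8.19 (limma adjusted p = 0.206). The gate gene Kit was at 9.80, 9.81 and 9.69 against 9.99 and 10.35 and differed by 0.40 (limma adjusted p = 0.412).

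Levels in normal LSK cells are set beside the 3 classes. The LSK arrays entered the fit behind the calls and the choice of probe set. The comparison shares the WT LIC arrays and is given without a test. The 6 measured markers of antibody-secreting cells had a summed intensity of 9176 to 12330 on LSK arrays. It was 1217 to 1489 on WT LIC and 1379 to 1613 on Ezh2 KO arrays. Igk was at 12.90, 12.49 and 12.83 in LSK cells, against means of 3.57 in WT and 3.78 in Ezh2 KO LICs. Xbp1 alone of this list had a lower mean in LSK cells than in WT LICs. Whether such cells were in the LSK sort, and their part in the LSK levels, was not tested. Of the 38 switched-on genes, 12 had an LSK mean above background (31.6%), against 7.53% of the 3505 autosomal genes at or under background in WT LICs. For Abcg3, Gas6 and Ttc30a1 the LSK mean reached the range of the Ezh2 KO arrays. Of the 31 raised genes, 30 were above background in LSK cells (96.8%), all but Fzd2, as were 96.9% of the 8478 genes above background in WT LICs. The LSK mean lay within or below the WT LIC range for 12 raised genes, between the groups for 13 and at or above the Ezh2 KO range for 6, among them Ldhb and Trp53inp1. Igll1 was at 4.19, 3.83 and 5.11 and Rag1 at 3.81, 4.46 and 5.90 in LSK cells, below both Ezh2 KO arrays.

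Several probe sets report 29 of the 75 called genes. Of their 53 other probe sets, 15 were at background in both groups, and 37 of the remaining 38 had the same sign as the one used, 33 of them with non-overlapping arrays. Differences were under 1 in size for 11 of the 38. Bmpr1a had 4 other probe sets, of which 3 above background differed by 4.25 to 4.50.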

How the data were processed

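The deposited values were linear intensity values from 1.94 to 19343.1 for 22690 probe sets, made by the authors with RMA per the submitters' processing notes, with no version; RNA was amplified by single-primer amplification per the labels' protocols. They were turned into log2 with no pseudocount. Control probe sets (64), probe sets with several symbols (691) and probe sets not listed (1555) entered no test of genes. Of 20380 with 1 symbol, 20351 matched the RefSeq table (GRCm38.p6).

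All 8 arrays entered 1 fit in limma 3.58.1 under R 4.3.3 (lmFit, eBayes, 3 groups, 5 residual degrees of freedom). The 2-sided p-values were adjusted over all 12393 genes, X and Y included. The median SE of a difference was 0.23, and each SE depends on the spread of the gene as well as on the number of arrays. An exact permutation test of 2 arrays against 3 cannot go below a one-sided p of 0.1.

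Genes given with array values were Ezh2, Ezh1, the 10 of each class with the widest difference whose higher mean exceeded the median of all genes, and up to 4 per list by p; a few others were added after their values were seen, such as Bmi1, Grb10, Ebf1, Pax5 and Sparc. The comparison, the lists and the motifs were chosen with earlier results of these data known. Promoters were found for 55 of 75 called genes, under 80%, so a check of base composition over the classes is void. No batch is given, so batch and group cannot be told apart. The fit was tested on simulated data, and plots were drawn with matplotlib 3.10.9.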

Additional observations from a re-analysis of the deposited data

Results flagged for a closer look

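Probe sets outside the test of genes also carried signal. In a limma fit over all probe sets other than controls, 9 of the 1555 with no listed gene symbol and 4 of the 691 with several symbols were called between Ezh2 KO and WT LICs, all of them higher. The 9 differed by 1.28 to 5.65 (log2), the top one from a mean of 3.26 in WT LICs to 8.91 in Ezh2 KO LICs. The 4 differed by 1.75 to 7.50, the top one from 2.57 to 10.06, and no gene is named from them since each matches several.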

How the results depend on the processing

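Median centring, quantile normalization, cyclic loess, the trended robust prior, the mean of probe sets, X and Y genes left out before the fit and a difference above 1 kept the counts of called genes within 1.5 times of those reported. With dim genes filtered, 31 genes were called, 26 higher and 3 switched on. A pseudocount of 16 left 22 switched on. Array weights gave 113 called, 13 lower and 54 raised. With the LIC arrays only, 30 were called in limma, 30 higher and 0 lower (562 lower at an unadjusted p under 0.05), 19 switched on and 11 raised, and the Ezh2 difference was -2.10 with an adjusted p of 0.055. Whether repeat numbers pair the LIC samples cannot be decided here, since the deviations of the 2 Ezh2 KO arrays from their mean are mirror images. Deviations of equal repeat number correlated at 0.148 for number 1 and 0.0173 for number 2. With the replicate block, 32 genes were called, 31 higher and 1 lower, 17 switched on and 14 raised. With the background level 1 lower, 20 were switched on and 49 raised, and with it 1 higher, 47 and 22. Leaving out 1 array at a time gave 23 to 139 called genes, 22 to 89 higher, 1 to 50 lower, 13 to 44 switched on and 7 to 47 raised. No called gene reversed under any of these fits, and 10 kept their call in every fit that tested them: Alpl, Cd79a, Enpep, Igll1, Mab21l2, Mpzl2, Scara3, Spib, Vpreb3 and Wasf1. With dim genes filtered, of these 10 only Cd79a and Igll1 were tested. The fall of the counts with fewer arrays or fewer genes was not traced to a cause. Counts and medians of the lists without single arrays were added after seeing the data. The 2 Ezh2 KO arrays limit the precision, and a level under background gives only a bound.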
